A study of Solanum lycopersicum with 2 samples.

Results

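SlWUS peaks on chromosome 1, the longest tomato chromosome, were described by DNA affinity purification sequencing (DAP-seq), in which a tagged protein pulls its target fragments out of purified, sheared genomic DNA for sequencing. Every peak of the deposited list that lies on chromosome 1 of the SL4.0 build was taken, which gave 7736 of 65452 peaks, or 11.8%, over a span of 90.8 Mb. The other 11 numbered chromosomes held 57710 peaks and unplaced sequence held 6. The series has 2 samples from tomato plants (Solanum lycopersicum, cultivar Ailsa Craig), 1 titled for the transcription factor WUSCHEL, whose protein the series title calls SlWUS, and 1 input. Both carry flower abscission zone under the cell line label and Halo, a word that also names a protein tag, under the cell type label. Both came from greenhouse plants kept in 16 h of light at 25°C and 8 h of dark at 15°C. No genotype, mutant allele or treatment is labelled. With 1 library per group there was no replicate, so no spread between libraries could be measured and no difference given here was tested; 95% intervals cover counting error only.

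WUSCHEL is a homeodomain transcription factor that keeps stem cells in plant meristems, and the peptide CLV3 restrains it in a feedback loop. The series title links both to auxin and ethylene in flowers shed under low light. In DAP-seq the protein meets DNA without its chromatin, so a peak marks DNA that can be bound and not a site occupied in the abscission zone. On most tomato chromosomes, genes are concentrated towards the ends, and the middle is repeat-rich pericentromeric heterochromatin. The gene, exon, intron or repeat under each peak was not analysed here, and no sequence is shown, because no sequence of this build was used.

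Chromosome 1 carried the most SlWUS peaks of any chromosome, and for its length it was near the middle of the order. Its density was 85.2 peaks per Mb (95% interval 83.3 to 87.1, exact Poisson), against 84.7 on the other 11 chromosomes together and a range of 76.6 on chromosome 12 to 95.03 on chromosome 6. That put it in place 6 of 12. Peaks clustered, so this interval understates the error: counts in its 90 full windows of 1 Mb had a variance 19.1 times their mean.

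A typical peak on chromosome 1 was like a typical peak elsewhere. The median width was 314 bp (quartiles 252 and 424 bp), against medians of 309 to 315 bp on the other chromosomes. The narrowest peak was 207 bp on chromosome 1 and also on the others. Fold enrichment, which is the authors' value for the fragments at the summit over the local background, had a median of 4.34 (quartiles 3.38 and 6.28), against chromosome medians of 4.29 to 4.38. The median summit held 30 fragments over a background of 6.11, both solved from the deposited fold and p. Peaks covered 2.88 Mb, or 3.18% of the span, against 2.81% to 3.59% on the other chromosomes.

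Peaks on chromosome 1 fell into a short dense stretch at the start, a long inner part of lower density and a long dense stretch at the far end. The first 7 Mb held 876 peaks at 125 per Mb (exact Poisson 95% interval 117 to 134). From 7 to 68 Mb the density was lower, with 52.8 per Mb from 7 to 41 Mb (50.4 to 55.3), 65.9 from 41 to 50 Mb (60.7 to 71.4) and 72.6 from 50 to 68 Mb (68.7 to 76.7). From 68 Mb to the last peak there were 3164 peaks at 139 per Mb (134 to 144), which is 40.9% of the chromosome's peaks on 25.1% of its span. These limits were drawn after the counts along the chromosome had been seen, and describe them without a test.

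The step at the start was abrupt and the one at the far end was gradual. The window of 1 Mb from 5000001 held 123 peaks, the next 99 and the one from 7000001 only 32. Towards the other end, the window from 66000001 held 49 peaks, followed by 86, 109, 107, 117 and 148 in the next 5 windows. From there on counts were even, since all 22 full windows from 68000001 held between 107 and 166 peaks, with a variance 1.62 times the mean. The inner windows from 7 to 41 Mb ran from 7 to 97 peaks, with a variance 6.63 times the mean.

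**Figure D1:**
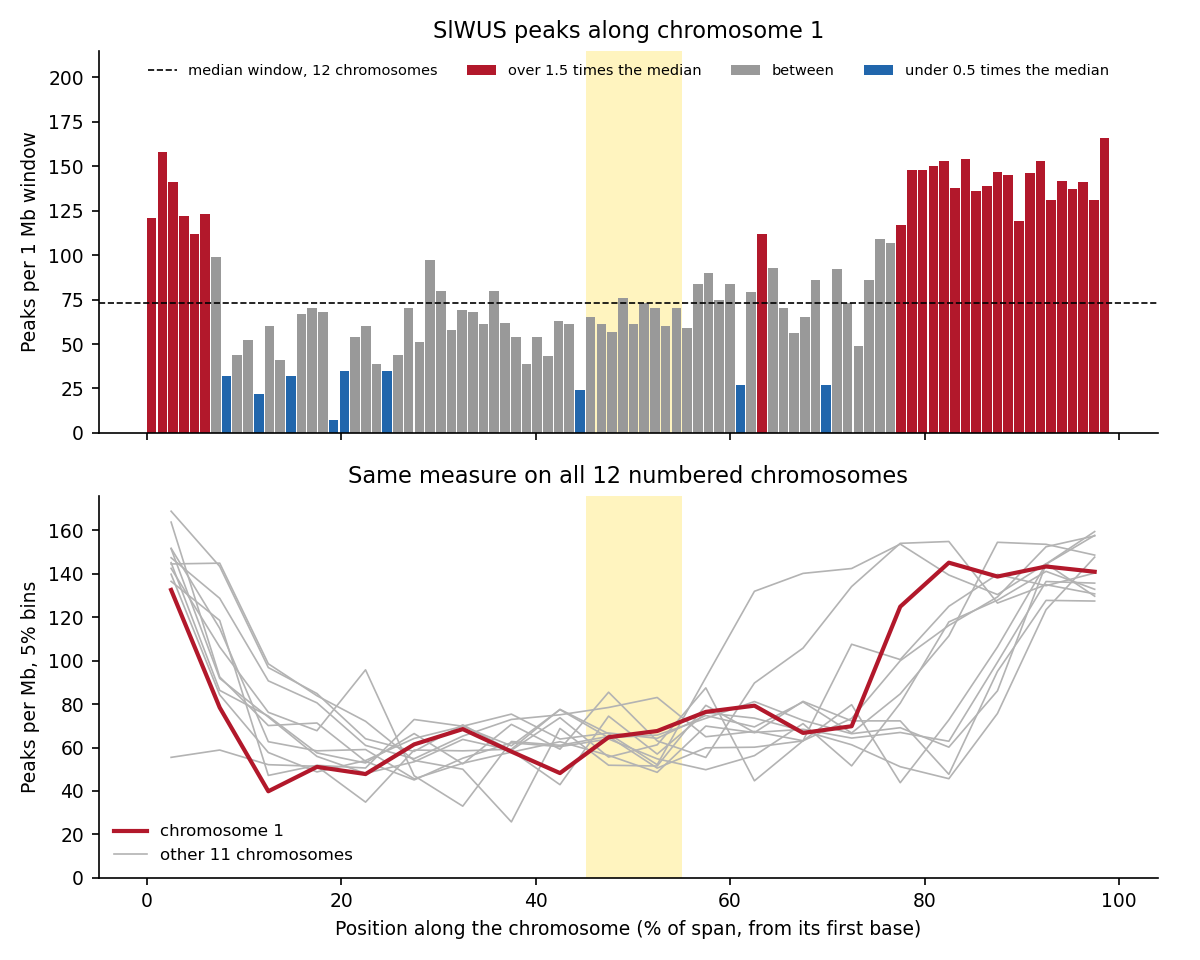
Peaks per full 1 Mb window along chromosome 1 (upper panel; red, over 1.5 times the median window of 73 peaks; blue, under 0.5 times; grey, between; the shading marks 41 to 50 Mb) and peaks per Mb in bins of 5% of the span on chromosome 1 (red) and each of the other 11 chromosomes (grey, lower panel). The first 6 windows and the last 20 are dense, and the 9 sparse windows lie between them.

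Dense windows, with more than 1.5 times the median of 73 peaks over all chromosomes, made up 27 of the 90 windows of chromosome 1, against 196 of 766, or 25.6%, over all 12 chromosomes. From the last end inwards, 20 dense windows followed each other without a break, from 70000001 to 90000000. The same number was found on chromosome 2, and 4 to 12 on the other chromosomes. At the first end, 6 dense windows followed each other, against 0 to 7 elsewhere. The 5 densest windows were those from 89000001 with 166 peaks, from 1000001 with 158, from 76000001 with 154, and from 74000001 and 83000001 with 153 each. Their counting intervals overlap, 142 to 193 for the first and 130 to 179 for the last, so their order is not resolved. On 8 of the other 11 chromosomes the densest window held more peaks than the densest on chromosome 1, up to 187 on chromosome 4.

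The ends of chromosome 1 were unlike each other. The first 10% of the span had 106 peaks per Mb, which was place 11 of 12. The first 5% alone, which lies within the dense stretch of 7 Mb, was also in place 11, at 133 per Mb against a median of 145 on the others. Its last 10% had 142 per Mb, place 5 of 12. Unequal ends were not particular to chromosome 1: the first and last 10% had 57.2 and 137 per Mb on chromosome 2. They had 112 and 151 on chromosome 10, while on chromosome 3 they were alike, at 138 and 137. Between 10 and 15% of the span chromosome 1 had 39.9 peaks per Mb, the lowest value of the 12 chromosomes, against 47.2 to 98.6 on the others. From 75 to 90% of the span it was in place 2 or 3 in each bin of 5%. The outer 10% at both ends together had 1.87 times the density of the central zone, which runs from 30 to 70% of the span, against 1.15 to 2.43 on the other chromosomes.

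Sparse windows, with fewer than 36.5 peaks, numbered 9 of 90 on chromosome 1, against 46 of 766, or 6.01%, over all 12 chromosomes; chromosome 9 had the highest share, 11.8%. Of these 9, 5 began in the first 20 Mb. The sparsest, from 17000001, held 7 peaks (95% interval 2.81 to 14.4), followed by the windows from 10000001 with 22, from 40000001 with 24, and from 55000001 and 63000001 with 27 each. All of the 7 peaks in the sparsest window lay after 17438860, and their fold ran from 3.69 to 9.85.

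Long stretches without a peak lay only in the inner part of chromosome 1, and the 6 longest all reached into its 5 sparsest windows. There were 15 longer than 200 kb, 11 of them between 7 and 41 Mb and 4 between 50 and 68 Mb; none lay in the dense stretches or from 41 to 50 Mb. The other chromosomes had 3 to 9 each, and per 10 Mb chromosome 1 had 1.65, against 0.460 on chromosome 3 and 1.69 on chromosome 2. The longest, of 568 kb, ran from 63464401 to 64032587, between a peak of 6.89-fold and one of 10.6-fold. The next ran from 16903608 to 17438860 (535 kb), from 55170973 to 55652471 (481 kb), from 10083134 to 10555571 (472 kb) and from 17439165 to 17824169 (385 kb). A single peak of 304 bp and 6.22-fold, from 17438861 to 17439164, separates the 535 kb stretch from the 385 kb one, and with 385336 bp to its nearest neighbour it was the most isolated peak of the chromosome. Stretches longer than 568 kb were found on 5 other chromosomes, up to 1177266 bp on chromosome 11. The peak list does not record whether reads could be aligned there.

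Spacing followed the division into dense stretches and inner part, but not the order of density within the inner part. Neighbouring summits on chromosome 1 were a median of 5629 bp apart (quartiles 2017 and 13776 bp), against medians of 5148 to 6389 bp on the other chromosomes. The median was 4277 bp in the first 7 Mb, 8825 bp from 7 to 41 Mb, 9216 bp from 41 to 50 Mb, 7008 bp from 50 to 68 Mb and 4140 bp from 68 Mb on. Distances under 2000 bp made up 24.7% on chromosome 1, against 23.7% over all 12 chromosomes. They were most frequent in the dense stretches, at 29.8% in the first and 29.2% in the last, and least frequent from 41 to 50 Mb, at 14.9%. Distances over 50000 bp made up 3.13% on chromosome 1, within the range of 2.26% to 3.84% of the others.

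**Figure D2:**
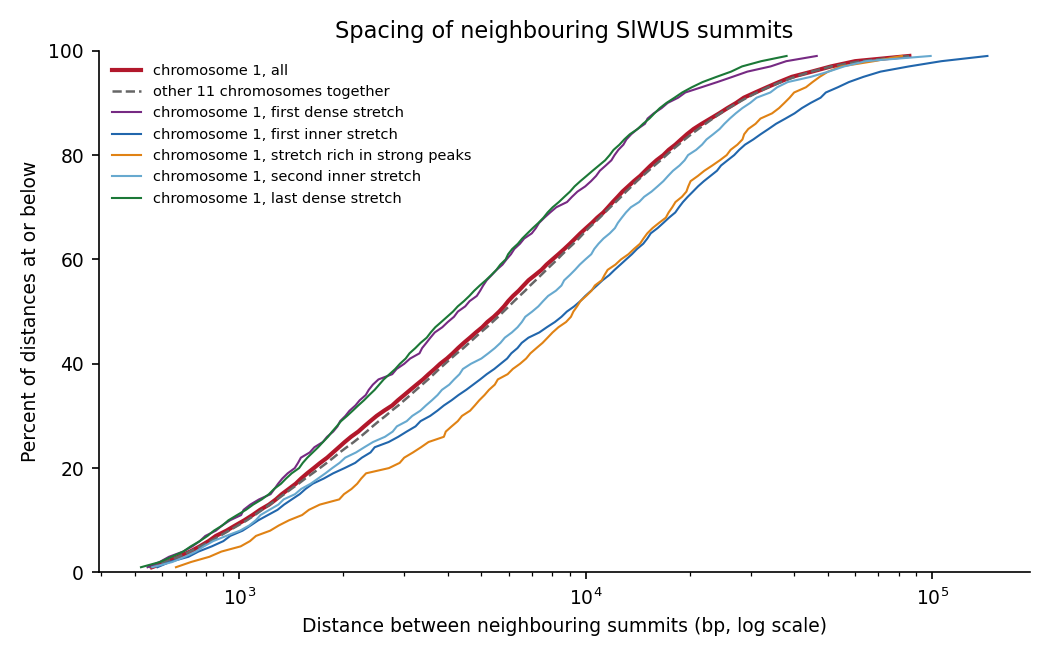
Cumulative percent of distances between neighbouring summits (log axis, bp) for all of chromosome 1 (thick red), its 5 stretches (thin lines) and the other 11 chromosomes together (dashed). Chromosome 1 as a whole lies close to the line of the others, while its dense stretches lie to the left and its inner stretches to the right.

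The longest runs of peaks less than 2000 bp apart held 9 peaks each, from 72096775 to 72104888 and from 86803854 to 86813867, both in the last dense stretch. Their median folds were 3.84 in both, below the chromosome's median. A run of 8 peaks from 90256556 to 90265354 included one of 45.2-fold. The 30 peaks with no neighbour within 50 kb were all in the inner part, 23 of them between 7 and 41 Mb, and made up 0.388% of peaks, against 0.379% on the other chromosomes.

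Peak strength changed little along the chromosome in the middle of its distribution. The median fold was 4.34 in the first 7 Mb, 4.53 from 7 to 41 Mb, 4.53 from 41 to 50 Mb, 4.49 from 50 to 68 Mb and 4.17 from 68 Mb on. The median background was 6.17, 5.56, 6.11, 5.69 and 6.39 fragments in the same order, and the median pileup was between 29 and 32 fragments in each. From 7 to 41 Mb, 18.4% of peaks stood on the lowest background in the list, 4.08 fragments, and from 68 Mb on 2.28% did. Over the 90 windows of 1 Mb, Spearman's rho between the number of peaks and their median fold was -0.52; windows share one library and its local background, and this is a description. How far the background sets these medians was not tested.

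The strong peaks of chromosome 1 were concentrated in the middle. It held 723 peaks above 10-fold, or 9.35%, against 9.23% over all 12 chromosomes, and 159 above 20-fold, or 2.06%, against 1.99%. Above 50-fold it held 25 peaks, or 0.323%, against 0.252%, and above 100-fold 8, or 0.103%, against 0.0535%. Per Mb it was in place 3 of 12 above 50-fold, at 0.275, against 0.140 on chromosome 4 to 0.315 on chromosome 12. Only 1 of the 25 lay in the outer 10% at either end, and 20 lay in the central zone. Of these 20, 14 were the peaks from 41 to 50 Mb described next, so both counts largely describe that stretch. Of all 7736 peaks of the chromosome, 2249 lay in the outer 10% at either end and 2405 in the central zone. On the other 11 chromosomes 52.1% of the peaks above 50-fold were central and 11.4% distal. Of all 57710 peaks there, 18105 were central and 18146 distal.

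From 41 to 50 Mb chromosome 1 held 14 of its 25 peaks above 50-fold. The stretch makes up 9.91% of the span and 7.67% of the peaks, and runs from 45.2 to 55.1% of the chromosome. Peaks above 50-fold made up 2.36% of its 593 peaks, at 1.56 per Mb (exact Poisson 95% interval 0.850 to 2.61). On the rest of chromosome 1 they numbered 11, at 0.134 per Mb (0.0671 to 0.241). The stretch was proposed with these values known, so its count is a description. Of 588 overlapping stretches of 9 Mb on the other chromosomes, placed in steps of 1 Mb, none held more than 6 such peaks and the median held 2. The step to 42 to 51 Mb kept 14 on chromosome 1, and from 40 to 49 Mb it held 13.

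**Figure D3:**
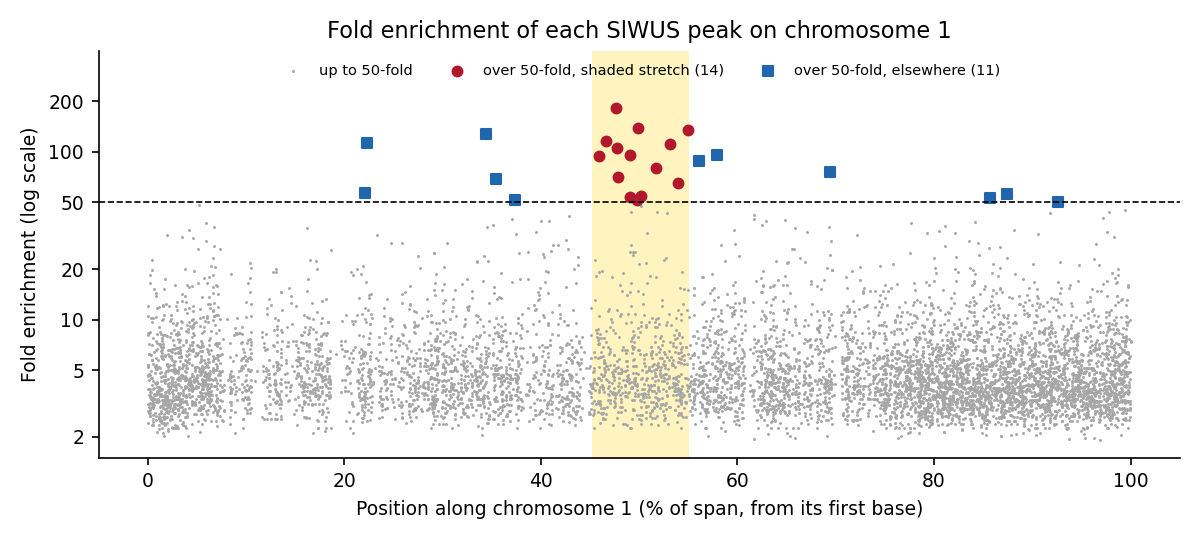
Fold enrichment (log axis) of each peak on chromosome 1 against its position in percent of the span; the dashed line is 50-fold and the shading marks 41 to 50 Mb. Of the 25 peaks above the line, the 14 in red lie in the shaded stretch and the 11 in blue elsewhere. Of the 11 grey peaks between 40 and 50-fold, 4 lie in the shaded stretch.

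The excess from 41 to 50 Mb lay mainly in the strongest class. Peaks of 10 to 20-fold made up 7.25% of its peaks, against 8.35% in the inner sequence on both sides of it (7 to 41 and 50 to 68 Mb together). Those of 20 to 50-fold made up 2.53%, against 2.19% there, and those above 50-fold 2.36%, against 0.258%. Above 20-fold the stretch held 29 peaks; 3 of the 588 stretches on the other chromosomes held at least as many. The fullest of those was on chromosome 3 from 33000001 to 42000000, with 30 peaks above 20-fold, of which 5 were above 50-fold. Above 10-fold the stretch held 72 peaks, and 163 of the 588 held more. Both counts include its 14 peaks above 50-fold, which were known when the stretch was proposed. Its place above 20-fold is therefore not separate from theirs, and without them it held 15 peaks of 20 to 50-fold.

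Outside its 9 Mb, chromosome 1 was near the middle of the order in strong peaks. When the 9 Mb holding the most peaks above 50-fold were left out of every chromosome, chromosome 1 had 0.134 per Mb and was in place 5 of 12, against 0.0902 on chromosome 2 to 0.260 on chromosome 12. The fullest 9 Mb held 56.0% of such peaks on chromosome 1 and 28.6% to 60.0% on the others. The highest share was on chromosome 2, with 6 of its 10. There 9 Mb is a larger part of the span, which is 53.3 Mb against 90.8 Mb on chromosome 1, so the shares are not alike.

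**Figure D4:**
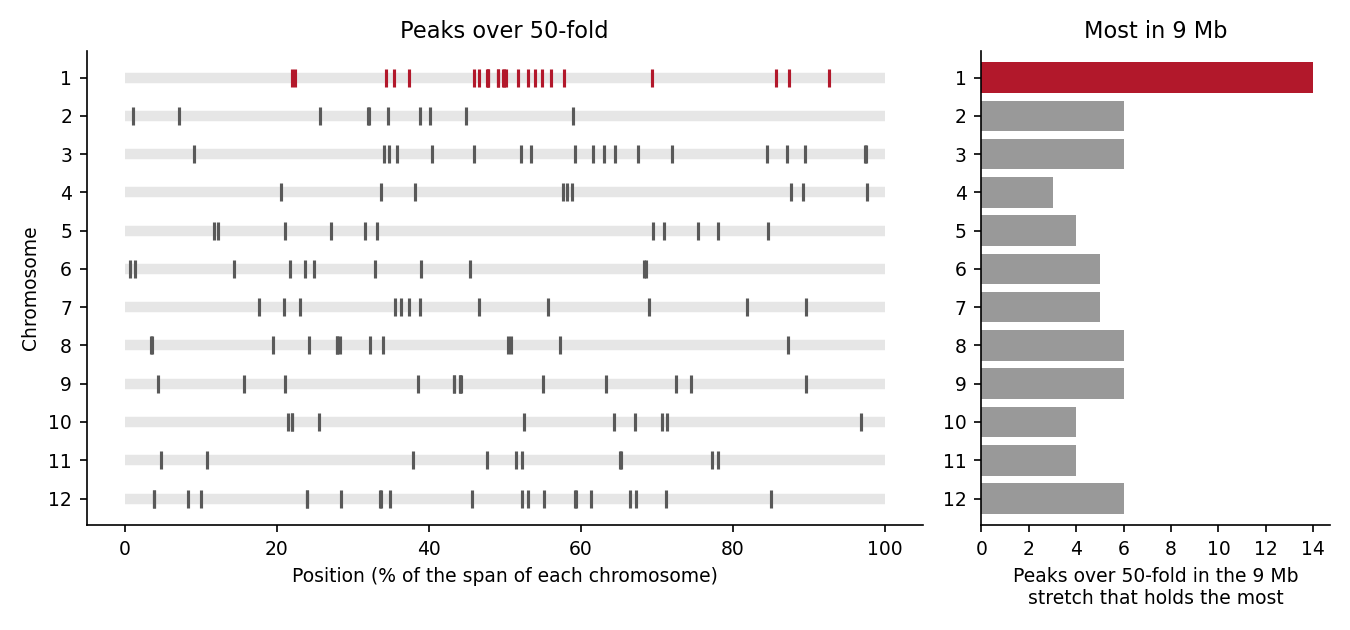
Position of the 165 peaks above 50-fold on each chromosome in percent of its span (left; red, chromosome 1) and the most such peaks in any stretch of 9 Mb (right). Chromosome 1 reaches 14 and the others 3 to 6.

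The strongest peak of chromosome 1, from 43274466 to 43274983, reached 183-fold and was second among all peaks. Its summit held 977 fragments (917 to 1040, 95% counting interval), where 4.35 were the background. The next was 139-fold, from 45275779 to 45276309, where 1355 fragments stood over a background of 8.73. Expressed as fold with the background taken as exact, their intervals of 172 to 195 and 132 to 147 do not meet, although the second had more fragments. The third, from 49895200 to 49895709, reached 135-fold with 784 fragments, and its interval of 126 to 145 overlaps that of the second.

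Of the 15 strongest peaks of the chromosome, 10 lay from 41 to 50 Mb. Besides the first 3 these included a peak from 42359327 to 42359846 (116-fold), one from 48211912 to 48212407 (111-fold) and one from 43382519 to 43383031 (105-fold). The remaining 4 of the 10 were lower: those from 44583396 to 44583880 (95.3-fold), 41709019 to 41709509 (94.6-fold), 46977122 to 46977602 (80.1-fold) and 43410935 to 43411429 (70.8-fold). The other 4 peaks above 50-fold in the stretch started at 48992591 (65.4-fold), 45554746 (54.5-fold), 44588585 (53.8-fold) and 45153766 (51.3-fold). Outside the stretch the 15 strongest included peaks from 31268333 to 31268846 (127-fold), 20290571 to 20291102 (113-fold) and 52544197 to 52544695 (96.2-fold). The last ones lay at 50950433 to 50950977 (87.7-fold) and 62998106 to 62998663 (75.9-fold). The peaks at 50950433 and 52544197 continue the series just past 50 Mb, the first of them 1.06 Mb after the last in the stretch, whereas before 41 Mb the nearest peak above 50-fold was 7.78 Mb away.

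Around the limit of 50-fold the order was not resolved by the depth. The lowest peaks above it were 50.1-fold from 84116639 (interval 45.2 to 55.4) and 51.3-fold from 45153766 (46.2 to 56.8). The highest below it were 48.4-fold from 4703476 (43.7 to 53.5) and 47.3-fold from 45536423 (42.7 to 52.4). Of the 11 peaks between 40 and 50-fold, 4 lay from 41 to 50 Mb.

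The 14 strong peaks of the stretch were spread through it with weaker peaks between most of them. They spanned 8.19 Mb, with a median of 650 kb between neighbours (5.17 kb to 1422 kb) and a median of 48 weaker peaks between them. The closest pair, of 95.3 and 53.8-fold at 44583396 and 44588585, were direct neighbours 5171 bp apart, and the next peak, 3896 bp further, reached 25.3-fold. The peaks at 43382519 and 43410935 were 28.4 kb apart with 4 weaker peaks between. Over all 28 flanking positions the adjacent peak had a median of 4.19-fold, against 4.34 over the chromosome. Of the 28, 5 were above 10-fold, and 2 of these were the closest pair itself, each counted as the neighbour of the other. The 2.59-fold peak between those at 43274466 and 43382519 was counted for both. Peaks above 10-fold made up 12.1% of all peaks in the stretch and 9.35% on the chromosome, and the 28 positions are too few to set against these shares.

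The widths of these 14 peaks ran from 435 to 531 bp (median 493), against 461 to 729 bp (median 541) for the 11 strong peaks elsewhere on chromosome 1 and 399 to 1909 bp (median 500.5) on the other chromosomes. Quartiles of width were 481.5 and 512 bp in the 14, and 475.5 and 542.5 bp on the other chromosomes. Summits lay at 45.6 to 55.8% of the width in the 14, against 45.6 to 66.7% in the 11 and 13.8 to 85.5% on the other chromosomes. The medians were close, at 48.8, 51.5 and 50.4% in the same order. A range widens with the size of the group, and the other chromosomes have 140 such peaks. Their pileup had a median of 651 fragments (350 to 1355), against 481 (322 to 799) in the 11 and 496 (275 to 1375) elsewhere. The background under them ran from 4.32 to 8.73 fragments with a median of 6.13, against 6.11 over all peaks of the chromosome.

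**Figure D5:**
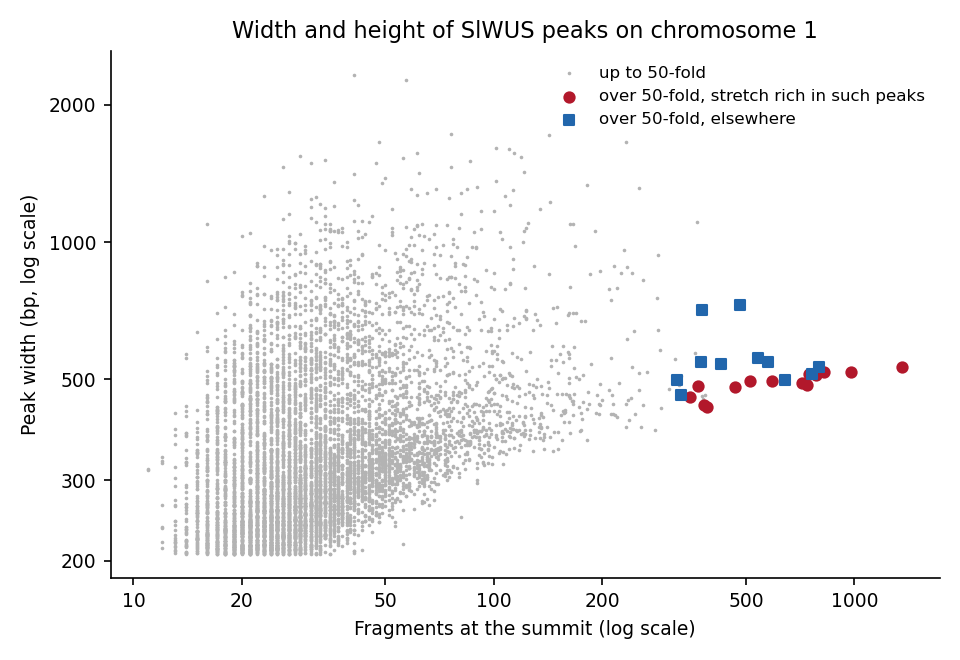
Width against fragments at the summit for the peaks of chromosome 1 (both axes logarithmic; grey, up to 50-fold; red, above 50-fold from 41 to 50 Mb; blue, above 50-fold elsewhere). The red points run from 435 to 531 bp and from 350 to 1355 fragments. The narrowest of them has 389 fragments and the widest has 1355.

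Apart from its strong peaks, the stretch was evenly filled when drawn from 41 to 50 Mb. Its 9 windows of 1 Mb held 57 to 76 peaks, with a variance 0.662 times the mean, and 1 of the 588 stretches on the other chromosomes had a lower ratio (median 4.57). Among the 65 stretches of 9 Mb on chromosome 1 that do not overlap 41 to 50 Mb, the lowest ratio was 0.297 and the median 6.95. From 41 to 50 Mb the longest distance between summits was 111 kb, against a median of 219 kb in the other chromosomes' stretches, of which 7.14% had a shorter one. Close neighbours were also few: 5.78% of those stretches had a smaller share of distances under 2000 bp. Its median pileup was 32 fragments, against 27 to 32 in those stretches, of which 98.8% had a lower one. In the 65 stretches on chromosome 1 it ran from 28 to 31. The window just before it, from 40000001, was one of the sparsest, with 24 peaks. From 40 to 50 Mb, which takes in that window, the variance was 3.47 times the mean. The longest distance between summits there was 335171 bp. The even filling and the short longest distance therefore depend on the limit at 41 Mb.

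Wide peaks of at least 800 bp numbered 293 on chromosome 1, or 3.79%, against 3.74% over all 12 chromosomes. They made up 4.74% of peaks in the last dense stretch, 3.99% in the first, 2.78% from 7 to 41 Mb, 2.53% from 41 to 50 Mb and 3.29% from 50 to 68 Mb. Stronger peaks were wider: the median was 274 bp up to 5-fold, 424 bp at 10 to 20-fold and 510 bp above 50-fold, against 274, 416 and 500.5 bp on the other chromosomes. None of the 25 peaks above 50-fold was wide, against 15 of 140 elsewhere. The classes below went the other way: 14.2% were wide at 20 to 50-fold, against 12.5% elsewhere, and 12.6% at 10 to 20-fold, against 11.3%. The widest 5 peaks were 2330 bp from 84148006 (4.52-fold), 2271 bp from 26516129 (7.68-fold), 1726 bp from 57505440 (11.03-fold), 1721 bp from 87380119 (23.001-fold) and 1661 bp from 1326620 (5.88-fold). The summit of each lay in the first part of the interval, at 13.9 to 35.4% of the width.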

How the data were processed

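The labels give 1 SlWUS and 1 input library, and the SlWUS peak list was analysed. The submitters' processing notes name Bowtie2 2.2.5, MACS2 2.1.2 and ChIPseeker; their settings, duplicate removal and the input's use were not given in the sources used here. Values of the authors' fold ratio, −log10 p and −log10 q per peak were used as deposited; the deposited score was not used. The pileup (fragments at the summit) and background were solved from the fold (1 added to both terms, as MACS2 writes it) and the Poisson p; every peak gave a whole pileup within 0.001. Positions are summits, counted from 1, on SL4.0. Spans end at the last peak. Intervals are exact Poisson 95% intervals. The depth of the libraries is unknown; pileups are the only counts. Members, stretches and limits were chosen with earlier results of these data known. Named peaks are the 15 strongest, those above 50-fold from 41 to 50 Mb, the 5 widest and those beside the 5 longest empty stretches, with the 5 densest and sparsest windows. Runs, isolated peaks and the comparison of 9 Mb stretches were added after the data were seen. The scripts were tested on simulated data. Scripts ran on Python 3.11.15 with matplotlib 3.10.9, scipy 1.17.1, pandas 2.3.3 and numpy 2.4.6.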

Additional observations from a re-analysis of the deposited data

How the results depend on the processing

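No paired analysis was possible because each group has 1 library. Of 29 alternatives, 15 kept the value within its interval, or a count within 1.5 times. The cause of the other changes was not tested unless named. A stricter q or fold limit can only remove peaks, so the lower density and counts it gives follow from the limit. Width, spacing and fold are then those of the peaks kept. Keeping only peaks of −log10 q of at least 5 leaves fewer peaks: the density of chromosome 1 was 68.2 per Mb, the median width 327 bp, the median spacing 7338 bp and the median fold 4.93. At −log10 q of at least 10 these were 41.9 per Mb, 358 bp, 13056 bp and 6.33, and the ratio of distal to central density was 1.76. The place of chromosome 1 in density was 5 of 12 in both stricter lists, against 6 in the full list. With the outer 5% or 20% as distal zone, the ratio was 2.07 and 1.64, against 1.87. Above 75-fold, chromosome 1 held 14 peaks, 9 of them from 41 to 50 Mb. With windows of 2 Mb none was sparse (0 Mb, against 9 Mb in windows of 1 Mb). Ranking by −log10 q left 25 strong peaks on chromosome 1, with 15 in the stretch. Pileups near the median of 30 fragments do not resolve the order of ordinary peaks.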
